A study of Mus musculus with 36 samples.

Results

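The comparison described here sets C2C12 cultures 48 h into differentiation against cultures 24 h into differentiation, the interval in which mononucleated muscle cells of this line join into myotubes. It takes the 3 arrays labelled 48 h and the 3 labelled 24 h, 6 of the 36 arrays of a 12-time course, paired by replicate number, and uses all 46019 probes of the deposited raw table. C2C12 is an established mouse myoblast line. Both groups were grown in DMEM with 20% FBS and then moved to DMEM with 2% horse serum, a fall in serum that starts differentiation. They carry no other treatment and no engineered allele, they differ only in the time after the medium change, and each array holds RNA of a whole culture plate. The replicates are growths of successive passages of the same line, so their spread is that between growths and not between animals. The other times were 0 h, in growth medium, and 1, 1.5, 2, 3, 6, 9, 12, 96 and 144 h.

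Skeletal muscle cells form in an ordered sequence. Myoblasts that differentiate leave the cell cycle and switch on the transcription factor myogenin and, through MyoD, myogenin and MEF2 proteins, the genes of the contractile apparatus. They then align, adhere and fuse into multinucleated myotubes, in which sarcomeres, the calcium release apparatus and the enzymes of muscle energy supply are built up. Myogenic factors of the MyoD family bind E-boxes, short sites of the form CANNTG.

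Total RNA was read as biotin-labelled cRNA on Illumina Mouse WG-6 v1.1 BeadChips, whose signal is a probe's fluorescence. The median raw intensity of the 6 arrays lay between 187.4 and 307.0. A level below is the log2 of the background-corrected and quantile-normalized intensity, which can be compared between arrays for one probe but not between probes. The 36 arrays lie on 6 chips of 6 arrays each, and 48 h and 24 h share a chip only in replicate 1. In replicates 2 and 3 they lie on different chips, so the chip and the time cannot be told apart within those pairs. Of the probes, 28471 have 1 gene name, 10 have several and 17538 are unnamed here. Muscle identity was read in both groups from Myod1 and Myog. Myod1, the factor that commits cells to muscle, had levels of 10.94, 10.54 and 10.49 in the 48 h cultures and 10.84, 10.50 and 10.14 in the 24 h cultures. Myog (myogenin) had 12.30, 12.51 and 12.28 in the 48 h cultures and 12.26, 12.25 and 12.27 in the 24 h cultures, and both factors were above the array's median on all 6 arrays.

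Promoter sequences are shown for 5 genes that moved in this interval, as 300 bases around the start of the transcript, from RefSeq on build GRCm38.p6, 5′ to 3′ on the strand of the gene. The first 3 belong to genes that were higher at 48 h and hold the E-box CAGCTG, the form bound by myogenic factors, in capitals. Fxyd6 lies at chr9:45369935-45370234 (plus strand), Casq1 at chr1:172219846-172220145 (minus strand) and Cav3 at chr6:112459255-112459554 (plus strand).
Fxyd6: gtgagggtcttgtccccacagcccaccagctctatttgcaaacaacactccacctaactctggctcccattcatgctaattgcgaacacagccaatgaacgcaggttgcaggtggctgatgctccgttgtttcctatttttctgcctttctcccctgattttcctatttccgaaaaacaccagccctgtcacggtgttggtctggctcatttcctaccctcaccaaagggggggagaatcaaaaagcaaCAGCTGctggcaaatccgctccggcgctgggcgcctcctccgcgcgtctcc
Casq1: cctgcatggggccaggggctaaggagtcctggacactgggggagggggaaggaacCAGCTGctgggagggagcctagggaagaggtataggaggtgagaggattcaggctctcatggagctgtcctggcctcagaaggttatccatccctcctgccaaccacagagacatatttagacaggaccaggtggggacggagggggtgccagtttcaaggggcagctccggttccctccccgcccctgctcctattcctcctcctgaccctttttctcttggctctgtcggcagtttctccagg
Cav3: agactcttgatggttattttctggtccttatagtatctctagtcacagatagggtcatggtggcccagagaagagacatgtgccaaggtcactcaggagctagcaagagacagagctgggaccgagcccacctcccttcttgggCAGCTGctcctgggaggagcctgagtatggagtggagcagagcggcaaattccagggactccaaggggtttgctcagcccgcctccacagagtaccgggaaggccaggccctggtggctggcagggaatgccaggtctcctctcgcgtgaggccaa
The other two belong to genes that were lower at 48 h. Htra3, at chr5:35679731-35680030 (minus strand), also holds CAGCTG, in capitals. Cxcl1, at chr5:90890995-90891294 (plus strand), holds 2 overlapping matches to the NF-kB motif, in capitals, a site through which inflammatory signals act on chemokine genes.
Htra3: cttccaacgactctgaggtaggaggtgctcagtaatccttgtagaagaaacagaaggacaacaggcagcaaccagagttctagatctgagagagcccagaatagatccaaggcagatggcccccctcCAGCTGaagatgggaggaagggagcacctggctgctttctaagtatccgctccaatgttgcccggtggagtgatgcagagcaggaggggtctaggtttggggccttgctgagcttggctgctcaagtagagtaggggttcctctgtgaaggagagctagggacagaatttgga
Cxcl1: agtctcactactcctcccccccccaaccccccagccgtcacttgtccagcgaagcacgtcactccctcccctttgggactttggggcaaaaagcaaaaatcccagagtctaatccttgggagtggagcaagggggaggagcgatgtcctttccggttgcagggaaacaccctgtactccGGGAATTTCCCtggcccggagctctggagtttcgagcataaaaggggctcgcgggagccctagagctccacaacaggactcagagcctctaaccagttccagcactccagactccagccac
Motifs were searched on both strands of all 32851 promoters of the table. CAGCTG, which is itself a CANNTG site, was in 16.3% of them and CANNTG in 72.3%. Of 48 named genes or list members that were higher at 48 h, 36 had a promoter in the table, and 10 of these held CAGCTG at one of their starts. Of 30 that were lower, 20 had a promoter, and 3 held CAGCTG. The NF-kB motif was in 8.46% of all promoters, in 6 of the 36 and in 5 of the 20. The motifs of MEF2 (3.19% of all promoters) and of serum response factor, the CArG box (1.63%), were in 3 and 4 of the 36 and in 1 and 0 of the 20. A gene with several listed starts was counted if any start held the motif, which raises its count over the share per promoter. A match describes letters only and is no evidence of binding.

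Between 24 h and 48 h 1816 probes changed, 3.95% of the 46019 tested, at a Benjamini-Hochberg adjusted p below 0.05 in limma with the replicate number as a block. Of these, 837 were higher at 48 h (1.82%) and 979 were lower (2.13%). Most changes were small. The median change of the called probes was 0.58 on the log2 scale in either direction, 106 probes were at least 2-fold higher (0.23%) and 109 at least 2-fold lower (0.237%). The calls belong to 567 genes with a probe that rose and 695 with a probe that fell, with 1 gene in both. All but 1 of the 1816 probes moved the same way in the 3 pairs. Without the replicate block 728 probes were called, 328 higher and 400 lower. Leaving out 1 replicate left between 566 and 1102 calls, and leaving out 1 of the 6 arrays between 827 and 1638.

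The direction was checked in arrays held out of the choice of probes. Of 563 probes called higher in a fit without replicate 1, 540 (95.9%) were higher at 48 h on the single chip that holds both times of replicate 1, and of 539 called lower, 525 (97.4%) were lower there. Their median difference on that chip was 0.66 and -0.67 on the log2 scale, beside 0.73 and -0.64 in the pairs that chose them. Held out in the same way, replicate 2 kept the direction of 249 of 250 and 315 of 316 probes, and replicate 3 that of 346 of 354 and 426 of 438. Among all probes the share with a given sign was between 48.3% and 51.7%. The pairs did differ in their tails, since 168 probes were at least 2-fold higher and 275 at least 2-fold lower in replicate 1, 160 and 192 in replicate 2, and 197 and 96 in replicate 3.

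Of the 15 named genes that rose, 4 are known for their part in muscle contraction or oxygen supply. Named genes were chosen for large changes of the same sign in all pairs. Times that do not overlap, here and below, thus follow largely from the choice and are a description. Myl2, the regulatory light chain of slow and cardiac myosin, had levels of 10.78, 11.71 and 11.09 at 48 h, against 8.08, 8.26 and 8.36 at 24 h. Every 48 h culture was far above every 24 h culture, and the rise of 2.96 ± 0.19, or 7.76-fold, was the largest of all probes (adjusted p = 7.6e-12). Here and below, a ± after the change of a gene is the SE of the limma fit over all arrays of the time course. The SE and the adjusted p beside it draw on the spread at all times, not only on that of the 3 pairs compared. Mb, myoglobin, the oxygen store of muscle, had 14.03, 13.73 and 13.77 at 48 h, against 12.04, 11.72 and 11.81 at 24 h, a 3.96-fold rise that was nearly equal in the 3 pairs (log2 change 1.99 ± 0.22, adjusted p = 2.7e-07). Pvalb, parvalbumin, the calcium buffer of fast fibres, had 10.26, 10.47 and 10.22 at 48 h, against 8.60, 8.61 and 8.73 at 24 h. Its groups did not overlap, and it rose 3.18-fold (1.67 ± 0.16, adjusted p = 7.8e-09). Myo18b, an unconventional myosin needed for sarcomere assembly, had 9.59, 9.09 and 9.24 at 48 h, against 7.91, 6.95 and 7.41 at 24 h, with no overlap (3.68-fold, adjusted p = 1.3e-08), but it was above the array's median, which stands in here for background, on only 2 of the 3 arrays at 24 h.

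Several membrane, signalling and matrix genes rose as steeply. Fxyd6, a regulator of the sodium-potassium pump, had 11.74, 11.62 and 12.02 at 48 h, against 9.67, 9.23 and 9.74 at 24 h (4.73-fold, log2 change 2.24 ± 0.17, adjusted p = 1.4e-10). Gja5, the gap junction protein connexin 40, had 11.26, 10.18 and 10.57 at 48 h, against 8.95, 8.53 and 8.70 at 24 h (3.85-fold, adjusted p = 3.1e-09). All 48 h cultures of both genes stood above all 24 h cultures. Hbegf, a membrane-bound growth factor of the EGF family, had 10.68, 9.92 and 10.19 at 48 h, against 8.41, 8.46 and 8.47 at 24 h, a rise of 1.82 ± 0.17 (3.53-fold, adjusted p = 7.8e-09). Anxa8, a calcium-dependent membrane-binding annexin, had 11.48, 11.72 and 11.67 at 48 h, against 9.14, 9.88 and 10.23 at 24 h (3.67-fold, adjusted p = 6.1e-10), so that the growths, which were spread at 24 h, lay close together at 48 h. Tnc, the matrix glycoprotein tenascin C, had 13.14, 12.43 and 13.07 at 48 h, against 11.08, 11.31 and 11.46 at 24 h. It rose 3.03-fold (1.60 ± 0.15, adjusted p = 8.2e-09), and of its 7 probes 3 were called, all higher.

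The other named risers cover enzymes and adaptors. Ctsw, the cysteine protease cathepsin W, known from cytotoxic lymphocytes, had 10.27, 10.12 and 10.01 at 48 h, against 7.79, 8.17 and 8.30 at 24 h (4.12-fold, adjusted p = 6.1e-10). Aldh1a3, an enzyme of retinoic acid synthesis, had 9.64, 8.97 and 9.23 at 48 h, against 7.53, 7.36 and 7.36 at 24 h (3.63-fold, adjusted p = 5.4e-09). Neither gene overlapped between the times. Mgll, which splits monoglycerides, Klk1b26, a kallikrein-type serine protease, and Pacsin1, an adaptor of endocytosis, rose by 1.67 ± 0.16, 1.67 ± 0.15 and 1.62 ± 0.13. A second Pacsin1 probe, above the median on all 6 arrays, changed by 0.09 and was not called. Klk1b26 belongs to a cluster of near-identical kallikrein genes, so its probe may read several of them. Ndrg4, of the NDRG family, had 13.19, 11.95 and 12.62 at 48 h, against 12.10, 10.10 and 10.82 at 24 h. Its groups overlapped because replicate 1 was high at both times, and the rise of 1.58 ± 0.24 rests on the pairing (adjusted p = 4.6e-05, and 0.113 without the replicate block).

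**Figure D1:**
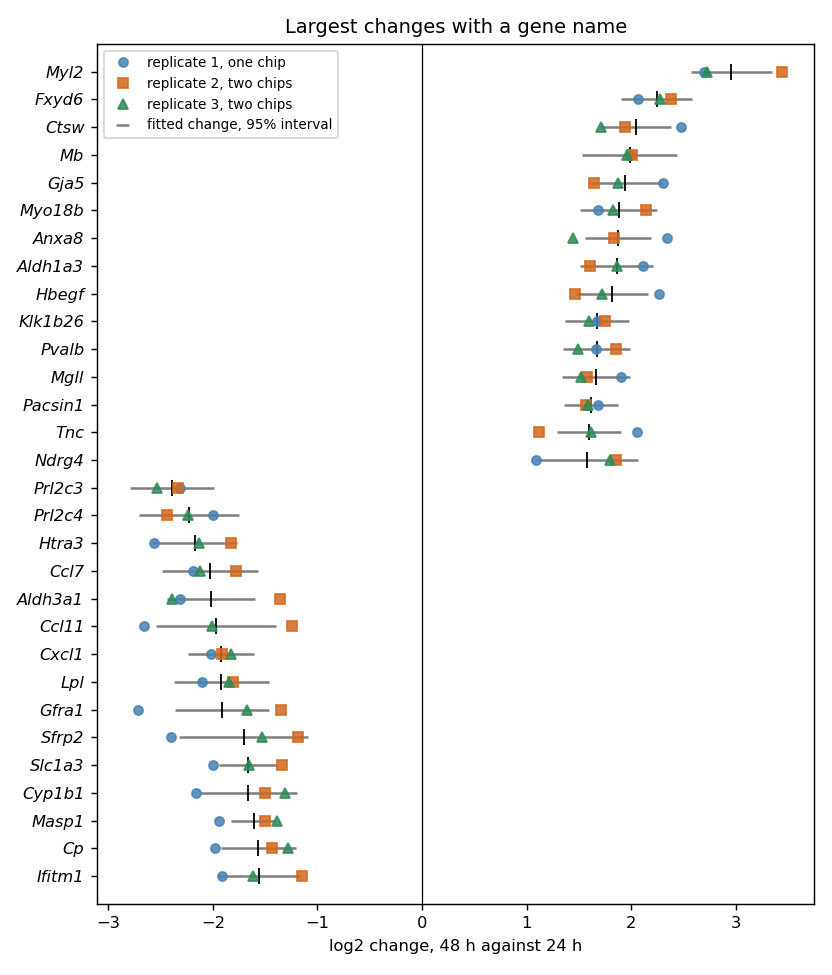
Log2 change at 48 h against 24 h of the 15 genes with the largest rise and the 15 with the largest fall. Points are the 3 pairs, replicate 1 being the pair on one chip; the tick and bar are the fitted change and its 95% interval. Fitted changes run from 2.96 for Myl2 to -2.39 for Prl2c3; all pairs of a gene lie on the same side of 0 because the genes were chosen so.

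The named genes that fell include secreted proteins, membrane proteins and enzymes. Prl2c3 and Prl2c4, hormones of the proliferin family that growing cells release, had the largest falls among the named genes. Prl2c3 had 7.05, 7.97 and 7.55 at 48 h, against 9.37, 10.30 and 10.08 at 24 h (log2 change -2.39 ± 0.20, adjusted p = 6.3e-10), and Prl2c4 changed by -2.23 ± 0.24. These are close paralogs whose probes may cross-hybridise, and both were above the array's median on only 2 of the 3 arrays at 48 h. Htra3, a secreted serine protease, had 8.70, 10.11 and 9.45 at 48 h, against 11.27, 11.93 and 11.57 at 24 h. All 48 h cultures lay below all 24 h cultures, a change of -2.17 ± 0.20 (adjusted p = 5.5e-09), and its second probe changed by -1.28.

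Of the 15 named genes that fell, 3 encode chemokines, which attract leukocytes. Ccl7 had 9.04, 9.77 and 9.44 at 48 h, against 11.23, 11.55 and 11.56 at 24 h (-2.03 ± 0.23, adjusted p = 2.4e-07). Ccl11, eotaxin, had 7.20, 8.60 and 8.05 at 48 h, against 9.86, 9.84 and 10.06 at 24 h (-1.97 ± 0.28, adjusted p = 1.8e-05). Cxcl1 had 8.18, 8.64 and 8.43 at 48 h, against 10.20, 10.55 and 10.26 at 24 h (-1.92 ± 0.15, adjusted p = 5.3e-10). The times did not overlap for any of these 3 genes, which follows largely from their choice by size. The 24 h cultures were tight, while at 48 h replicate 1 was lowest for all of them. Another chemokine, Ccl17, singled out after its values were seen, rose by 1.08 ± 0.22 (adjusted p = 0.0022). Ccl8, singled out in the same way, changed by -0.91. Chemokines were not counted as a group.

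Other secreted and cell surface genes fell as well. Sfrp2, a secreted Wnt antagonist, had 8.85, 8.21 and 8.23 at 48 h, against 11.25, 9.39 and 9.75 at 24 h. The fall of 1.71 on the log2 scale was largest in replicate 1 and lost its call without the replicate block (adjusted p = 0.229). Gfra1, a receptor for glial-derived neurotrophic factor, had 8.98, 10.86 and 10.46 at 48 h, against 11.69, 12.21 and 12.13 at 24 h (-1.91 ± 0.22, adjusted p = 5.0e-07). Masp1, a serine protease of the lectin complement pathway, had 11.60, 12.18 and 12.23 at 48 h, against 13.54, 13.68 and 13.62 at 24 h. Its change was -1.61 ± 0.11 (adjusted p = 7.6e-12), with -1.94, -1.50 and -1.39 in the pairs. A second Masp1 probe that was above the median on all 6 arrays changed by only 0.15 and was not called. Slc1a3, a glutamate transporter, and Cp, the copper-carrying ferroxidase ceruloplasmin, changed by -1.66 ± 0.14 and -1.57 ± 0.18. Ifitm1, an interferon-induced membrane protein, changed by -1.56 ± 0.19 on the probe named by rank and by -0.60 on a brighter one, both called.

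Enzymes were also among the largest falls. Lpl, lipoprotein lipase, had 9.62, 9.15 and 9.36 at 48 h, against 11.73, 10.96 and 11.21 at 24 h (-1.92 ± 0.22, adjusted p = 5.0e-07). Its other two probes were below the median on all 6 arrays. Aldh3a1, an aldehyde dehydrogenase, had 9.58, 10.53 and 9.43 at 48 h, against 11.90, 11.88 and 11.81 at 24 h (-2.02 ± 0.21, adjusted p = 3.8e-08). Cyp1b1, a cytochrome P450, had 10.18, 10.44 and 10.92 at 48 h, against 12.34, 11.95 and 12.24 at 24 h (-1.66 ± 0.23, adjusted p = 8.8e-06), while a second probe, above the median on all 6 arrays, changed by 0.04 (adjusted p = 0.94). On the named probes the 48 h cultures of all of these enzymes stood at least 1 log2 unit below the 24 h culture of the same number. This too follows largely from their choice by size.

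**Figure D2:**
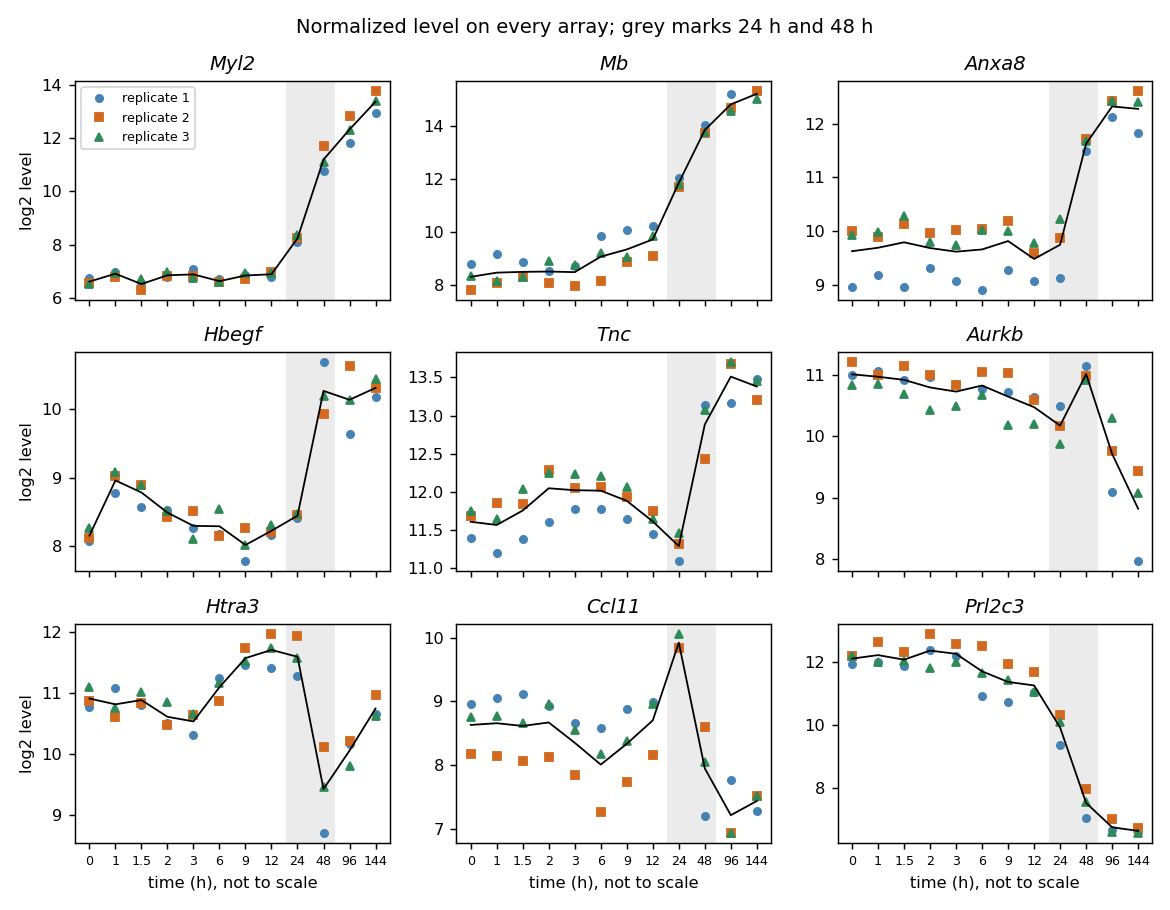
Normalized log2 level of 9 genes on each of the 36 arrays, by time in h at even spacing, with the mean as a line; the 24 h and 48 h arrays are shaded. Myl2 and Mb were already higher at 24 h than at 12 h, Anxa8, Hbegf and Tnc turned up after 24 h, Aurkb was low at 24 h between higher levels, Htra3 and Ccl11 dropped after 24 h, and Prl2c3 was falling before it.

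Gene groups were then described with 1 probe per gene, the brightest, over 17056 genes. Of these 1123 had changed (6.58%), 478 higher at 48 h (2.8%) and 645 lower (3.78%), and the median change of all genes was -0.0027 on the log2 scale. A change of RNA per cell and a change in the share of cells of a type cannot be told apart in whole cultures. The part of the chip in the pairs of replicates 2 and 3 was tested only through the fit with the chip as a block.

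A part of the contractile genes rose. Of 36 sarcomere genes measured, 12 rose, 0 fell and 24 did not pass, with a median of 0.49. Replicate medians were 0.32, 0.53 and 0.53. Beside Myl2, the largest rises were those of Casq1, calsequestrin of fast fibres, which binds calcium in the sarcoplasmic reticulum, Csrp3, a Z-disc LIM protein, and Myh8 and Myh1, the perinatal and fast IIx myosin heavy chains. Casq1 had 9.74, 9.43 and 9.31 at 48 h, against 8.47, 7.90 and 8.00 at 24 h (1.37 ± 0.17, adjusted p = 2.7e-06). Csrp3 had 12.74, 12.89 and 12.83 at 48 h, against 11.38, 11.61 and 11.54 at 24 h (1.30 ± 0.21, adjusted p = 0.00012). Both were separated between the times, unlike Myh1, with 11.34, 10.21 and 10.83 at 48 h against 10.98, 8.67 and 8.87 at 24 h, whose replicate 1 was high at both times. Myh1 rose by 1.28 ± 0.30 with the block (adjusted p = 0.0084) and was not called without it (0.628).

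The remaining 7 that rose were Actn2 and Actn3, the Z-disc alpha-actinins, Mybpc1, Myl3, Ldb3, Myom1 and Tnnt1, with changes between 0.52 and 0.96. The other 3 Ldb3 probes above the median on all 6 arrays changed by -0.21, 0.04 and 0.15 and were not called. Acta1, skeletal alpha-actin, showed no rise, at 16.10, 16.10 and 16.06 at 48 h against 16.10, 16.09 and 16.10 at 24 h, near the top of the scale on every array, where an array may no longer read a difference (95% interval of the log2 change -0.63 to 0.61). Ttn, titin, changed by 0.17 (adjusted p = 0.84), and Tnnt3, fast troponin T, by 0.77 (adjusted p = 0.17). The count of 12 fell to 5 without the replicate block, to 6 with the chip as a block and to 3 without replicate 2 or without replicate 3.

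Genes of muscle energy supply rose in part. Of 23 measured, 9 rose, 1 fell and 13 did not pass, with a median of 0.42. Cox6a2, a subunit of cytochrome c oxidase found in heart and muscle, had 13.93, 14.03 and 13.71 at 48 h, against 12.45, 12.36 and 12.41 at 24 h (1.48 ± 0.33, adjusted p = 0.0045, and 0.115 without the replicate block). Fabp3, the fatty acid binding protein of heart and muscle, had 12.90, 12.81 and 12.65 at 48 h, against 11.69, 11.29 and 11.50 at 24 h (1.29 ± 0.16, adjusted p = 1.8e-06). Gpd1, glycerol-3-phosphate dehydrogenase, had 11.10, 10.44 and 10.27 at 48 h, against 9.55, 9.07 and 9.39 at 24 h (1.26 ± 0.19, adjusted p = 3.0e-05). The times were apart for all of these. Mb, given above, Pygm, muscle glycogen phosphorylase (1.06 ± 0.21), Cox8b, Cox7a1, Pfkm and Eno3 made up the rest of the 9, and the gene that fell was Lpl. Ckm, muscle creatine kinase, changed by 0.60 (adjusted p = 0.29) after a rise of 2.33 between 12 h and 24 h. Without the replicate block 4 of the 23 rose, and with the chip as a block 9.

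Fusion and excitation genes moved little on balance. Of 18 fusion and adhesion genes 3 rose and 0 fell (median 0.08), and these were Cav3, the muscle caveolin, Jam2, a junctional adhesion molecule, and Dysf, dysferlin, which repairs the muscle membrane. Cav3 had 11.47, 11.15 and 10.80 at 48 h, against 9.87, 9.49 and 9.55 at 24 h, a 2.83-fold rise with no overlap (1.50 ± 0.17, adjusted p = 2.7e-07). Jam2 (0.81 ± 0.16, adjusted p = 0.0016) lost its call without the replicate block (0.0984), and its 3 other probes above the median on all 6 arrays changed by 0.34, 0.27 and 0.14 and were not called. Mymk, myomaker, the membrane protein required for fusion, had 13.74, 13.90 and 13.67 at 48 h, against 13.49, 13.45 and 13.42 at 24 h. It was slightly higher in each pair, but the change of 0.31 did not pass (95% interval -0.31 to 0.94, adjusted p = 0.76), and between 12 h and 24 h it had changed by 1.57. Of 19 genes of excitation, calcium handling and the neuromuscular junction 1 rose, Cacnb1, a subunit of the muscle calcium channel (0.62 ± 0.15, adjusted p = 0.012), and 0 fell. That call was lost without the replicate block (adjusted p = 0.0547). Casq1, given above with a rise of 1.37, also handles calcium. It was placed in the sarcomere list, among the 12 that rose there, and is not counted among the 19.

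The transcription factors of muscle showed few changes. Of 16 measured, 1 rose and 2 fell, with a median of 0.11. Id3, an inhibitor that keeps MyoD-type factors from binding DNA, had 11.03, 11.30 and 10.91 at 48 h, against 12.53, 12.24 and 12.34 at 24 h. It fell by 1.29 on the log2 scale, with the times well apart (adjusted p = 2.8e-06). Pax7, the factor of muscle stem cells, had 8.04, 7.69 and 7.74 at 48 h, against 8.34, 8.53 and 8.38 at 24 h (-0.60 ± 0.15, adjusted p = 0.013). Mef2c, a partner of the MyoD family, had 9.21, 8.92 and 9.54 at 48 h, against 8.75, 8.30 and 8.63 at 24 h (0.66 ± 0.17, adjusted p = 0.020), a call that was lost without the replicate block (0.137) and with the chip as a block (0.0717), while its other two probes were not called. Myog changed by 0.10 (95% interval -0.46 to 0.67) and Myod1 by 0.16 (95% interval -0.16 to 0.49), and neither passed.

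**Figure D3:**
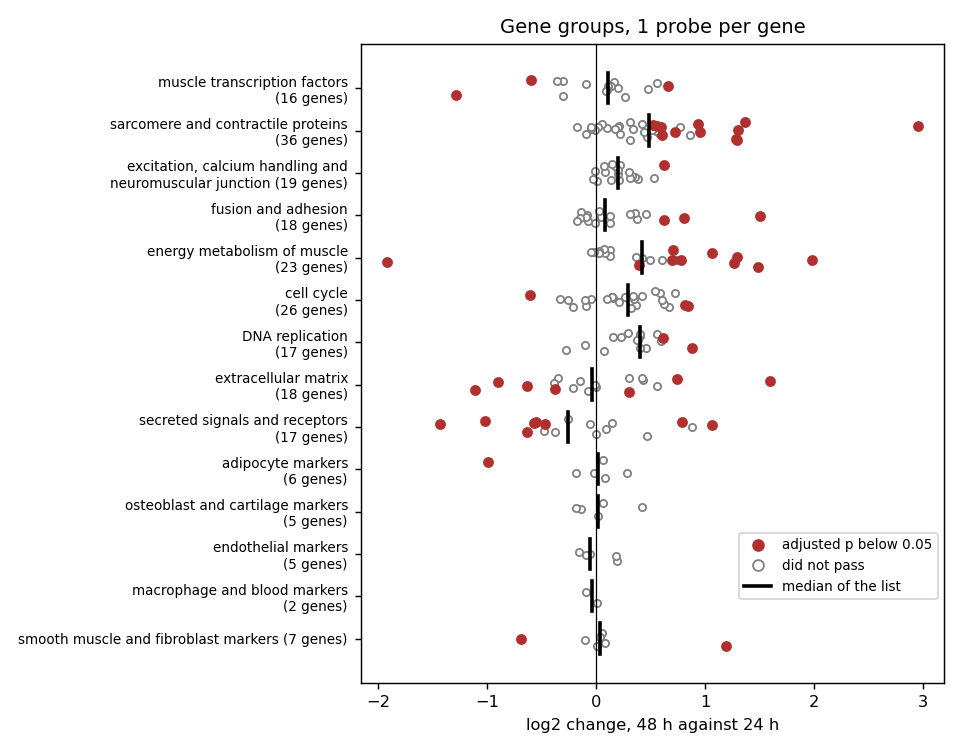
Log2 change at 48 h against 24 h of every measured member of the 14 gene groups, 1 probe per gene. Filled points passed an adjusted p of 0.05, open points did not, and the bar is the median of the group. Sarcomere (median 0.49), DNA replication (0.40), energy metabolism (0.42) and cell cycle genes (0.29) lie mostly to the right of 0, and secreted signals and receptors (-0.26) mostly to the left.

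Cell division genes stood higher at 48 h than at 24 h, though few passed the test. Of 26 cell cycle genes 19 had a change above 0 (median 0.29), but 2 rose, 1 fell and 23 did not pass. Of 17 DNA replication genes 15 had a change above 0 (median 0.40), with 2 that rose and 0 that fell. Aurkb, a kinase of chromosome segregation, had 11.16, 10.98 and 10.92 at 48 h, against 10.49, 10.16 and 9.88 at 24 h (0.84 ± 0.24, adjusted p = 0.042). Aurka, the kinase of the spindle poles, had 11.71, 11.44 and 11.62 at 48 h, against 10.49, 11.04 and 10.79 at 24 h (0.81 ± 0.22, adjusted p = 0.028). All 48 h cultures were above all 24 h cultures for both. Their calls were lost without the replicate block (adjusted p = 0.142 and 0.267) and with the chip as a block (0.159 and 0.0515).

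Tyms, thymidylate synthase, and Rrm2, the small subunit of ribonucleotide reductase, both of which supply DNA precursors, rose by 0.88 ± 0.18 (adjusted p = 0.0015) and 0.61 ± 0.17 (adjusted p = 0.029). Tyms had 12.16, 11.88 and 11.87 at 48 h, against 11.14, 11.14 and 10.98 at 24 h, and a second probe rose by 0.78. The Rrm2 call on this probe was lost without the replicate block (adjusted p = 0.152) and with the chip as a block (0.169). Other Rrm2 probes above the median at both times changed by 0.86 (adjusted p = 0.00014) and by 0.19 (not called). Ccnd1, cyclin D1, which links growth factors to the cell cycle, fell, with 12.33, 12.26 and 12.27 at 48 h against 12.87, 12.98 and 12.84 at 24 h (-0.61 ± 0.14, adjusted p = 0.0081). Cdkn1a, the inhibitor p21, which had risen by 1.96 between 0 h and 24 h, changed by 0.15 (adjusted p = 0.70).

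The course of the division genes was read by growth. The median of the cell cycle genes relative to 0 h of the same growth was -0.41 ± 0.10 (SD over 3 growths) in the 24 h cultures, -0.07 ± 0.05 in the 48 h cultures and -1.02 ± 0.47 in the 96 h cultures. For DNA replication genes it was -0.32 ± 0.03, 0.04 ± 0.13 and -0.79 ± 0.40 at the same times. All 3 growths had a higher median at 48 h than at 24 h, including replicate 1, where both times share a chip. Between 12 h and 24 h the median change of the cell cycle genes was -0.21, although 3 of the 26 rose and 0 fell by the test. For the DNA replication genes it was -0.095, and 0 of the 17 passed in either direction. Of all probes 1.24% were called higher and 0.387% lower in that interval. Between 48 h and 96 h 17 of the 26 and 14 of the 17 genes fell, beside 1.87% of all probes. The shares of all probes, here and for the interval before 24 h, count every probe, while the group counts take 1 probe per gene. The change after 48 h was lower than the change before it, by the test of the difference, for 12 of the 26 and 12 of the 17, with Aurka at -2.17 (adjusted p = 0.0010) and Tyms at -1.98 (adjusted p = 0.00023). That test called 3.77% of all genes in either direction. Both intervals share the 48 h arrays.

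**Figure D4:**
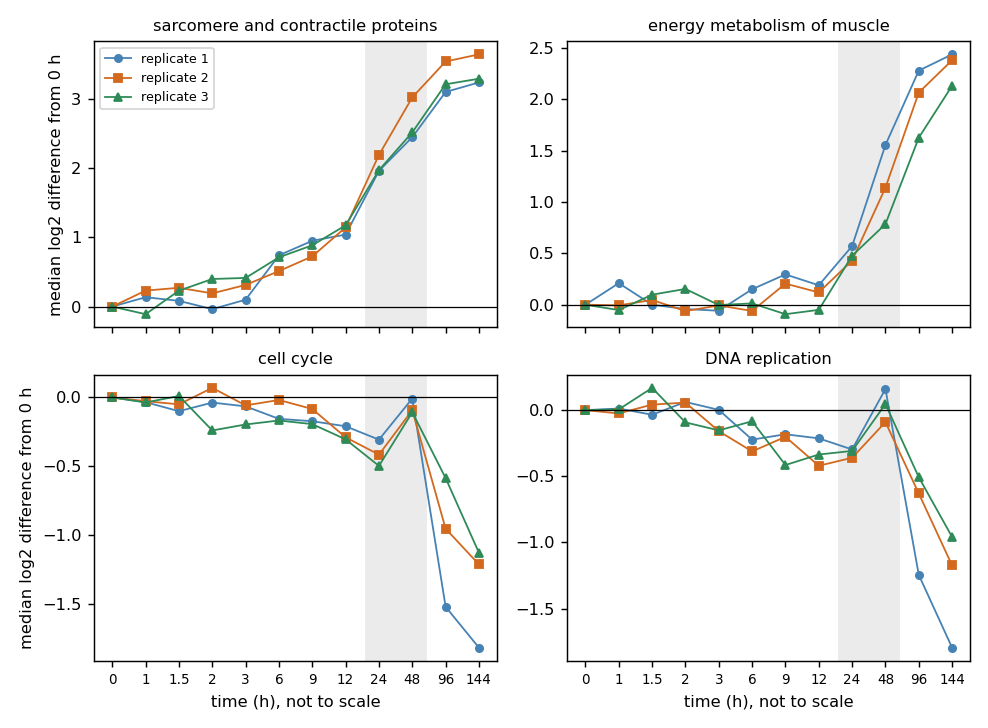
Median log2 difference from 0 h of 4 gene groups in each of the 3 growths, by time in h at even spacing, with 24 h and 48 h shaded. The sarcomere genes reached 2.04 on average by 24 h, 2.66 by 48 h and 3.29 by 96 h; cell cycle and DNA replication genes came back to near 0 at 48 h and lay lowest at 144 h.

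Matrix and signalling genes split. Of 18 matrix genes 3 rose and 4 fell (median -0.04). Besides Tnc, Col1a1, the alpha 1 chain of collagen I, rose by 0.75 ± 0.17 (adjusted p = 0.0072) and Col5a1 by 0.30 ± 0.08 (adjusted p = 0.033), both lost without the replicate block (0.251 and 0.147). Mmp2, a gelatinase, had 13.42, 13.99 and 14.01 at 48 h, against 14.46, 14.82 and 14.84 at 24 h (-0.90 ± 0.08, adjusted p = 3.1e-09). Dcn, the small proteoglycan decorin, had 10.56, 11.39 and 11.47 at 48 h, against 12.31, 12.15 and 12.30 at 24 h (-1.11 ± 0.22, adjusted p = 0.0015). The 48 h cultures were lower in every pair of both. Lum and Col6a1 also fell (-0.63 and -0.38), Lum at levels below the array's median on all 6 arrays. Their calls were lost without the replicate block (adjusted p = 0.0933 and 0.0614), which leaves 1 that rose and 2 that fell, and that of Lum also with the chip as a block (0.0861).

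Of 17 secreted signals and receptors 2 rose and 6 fell, with a median of -0.26. Bmp4, a bone morphogenetic protein, had 10.17, 10.70 and 10.72 at 48 h, against 12.05, 12.07 and 11.78 at 24 h. It fell by 1.44 on the log2 scale with the times far apart (adjusted p = 5.5e-07). Parts of the insulin-like growth factor system, which drives muscle growth, fell, namely Igf1 (-0.55), its receptor Igf1r (-0.63, with a second probe at 0.11 that was not called) and the binding proteins Igfbp4 (-1.02) and Igfbp5 (-0.57), as did the receptor Notch3 (-0.47). The calls of Igf1, Igfbp4 and Notch3 were lost without the replicate block (adjusted p = 0.241, 0.217 and 0.148). Tgfb1, transforming growth factor beta 1, rose by 0.79 ± 0.13 (adjusted p = 0.00022), and Ccn2, connective tissue growth factor, had 13.98, 13.30 and 13.82 at 48 h, against 12.92, 12.59 and 12.40 at 24 h (1.07 ± 0.24, adjusted p = 0.0059). Without the replicate block these had adjusted p = 0.0558 and 0.0515.

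Markers of other cell types were read beside these groups. Of 6 adipocyte markers 0 rose and 1 fell, Cebpa, a transcription factor of fat cells, with 9.69, 10.57 and 10.10 at 48 h against 10.94, 11.31 and 11.07 at 24 h (-0.99 ± 0.12, adjusted p = 2.2e-06). Of 7 smooth muscle and fibroblast markers Tagln, transgelin, an actin-binding protein, rose by 1.19 ± 0.18 (adjusted p = 4.2e-05), and Pdgfra, a receptor of mesenchymal cells, fell by 0.69 on the log2 scale (adjusted p = 0.00019), while a second Pdgfra probe changed by 0.17 and was not called. None of 5 osteoblast and cartilage, 5 endothelial and 2 macrophage and blood markers passed in limma, and at an unadjusted p under 0.05 there were 1, 0 and 0. Ptprc, the leukocyte marker CD45, was below the array's median on all 6 arrays.

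The course of the called probes was then read. Since they were chosen for their step between 24 h and 48 h, smaller moves in other intervals follow from the choice, and the values are a description. Among the probes chosen without the growth in which they were read, those higher at 48 h had a median log2 difference from 0 h of 0.12 ± 0.07 in the 12 h cultures (mean and SD of the 3 growths). It was 0.36 ± 0.07 at 24 h and 1.06 ± 0.03 at 48 h, followed by 1.34 ± 0.40 at 96 h and by 1.26 ± 0.37 at 144 h. Those lower at 48 h had -0.10 ± 0.09, -0.33 ± 0.10, -0.93 ± 0.13, -0.83 ± 0.09 and -0.78 ± 0.07 for the same times. Each growth was read over a different set of probes (563, 250 and 354 higher, 539, 316 and 438 lower), so gaps between growths are not a difference between growths. The 48 h and 144 h arrays share a chip in all 3 growths, and whether this moves the later values was not tested.

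**Figure D5:**
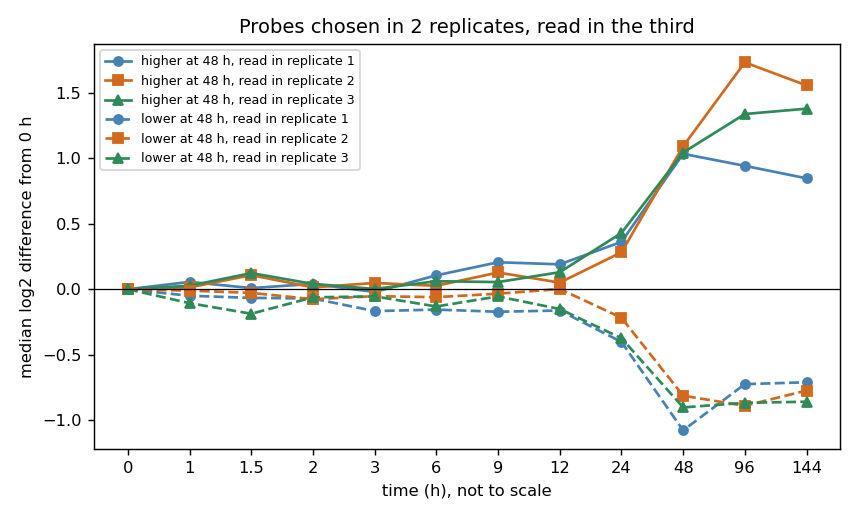
Median log2 difference from 0 h, by time in h at even spacing, of probes called higher (solid) or lower (dashed) at 48 h against 24 h in a fit without the growth in which they are plotted. The median of the higher probes is 0.36 on average at 24 h and 1.06 at 48 h; each growth is drawn over its own set of probes.

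The step was set against its neighbours by tests of the difference. The intervals are of unequal length, each longer than the one before. Changes and counts are per interval and were not scaled to time, so they do not compare rates. Between 24 h and 12 h 750 probes changed (1.63%), 572 higher (1.24%) and 178 lower (0.387%) at 24 h, and between 96 h and 48 h 1763 changed (3.83%), 901 higher (1.96%) and 862 lower (1.87%) at 96 h. The change from 24 h to 48 h differed from that from 12 h to 24 h for 85 probes (0.185%), 34 with a more positive (0.0739%) and 51 with a more negative change (0.111%). The count was 2 without the replicate block, 36 without replicate 1, 3 without replicate 2 and 0 without replicate 3 (2150 at an unadjusted p under 0.05 in limma), so it depends on the block and on the number of growths. Both steps share the 24 h arrays. Among the genes named above, Tnc (difference 1.92, adjusted p = 0.0010), Aldh1a3 (2.04, 0.0019), Anxa8 (1.61, 0.0048), Hbegf (1.60, 0.014), Pacsin1, Myl2 (1.60, 0.027) and Ctsw rose more after 24 h than before it. Tnc had levels of 11.61 ± 0.15 (SD, n = 3) in 12 h cultures, 11.28 ± 0.19 in 24 h cultures and 12.88 ± 0.39 in 48 h cultures.

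Ccl11 had the largest such difference, -3.19 (adjusted p = 0.0021). Its level was 8.70 ± 0.47 in 12 h cultures, 9.92 ± 0.12 in 24 h cultures and 7.95 ± 0.71 in 48 h cultures, having risen by 1.22 before 24 h. Ccl7 (-2.37, adjusted p = 0.0048), Htra3 (-2.06, 0.0048), Gfra1, Slc1a3, Masp1 and Cp also fell more after 24 h than before it. Mb showed no such difference per interval, with a change of 2.13 from 12 h to 24 h and 1.99 from 24 h to 48 h (difference -0.14, adjusted p = 0.99). The second interval is the longer, so the 2 values are not equal rates.

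The change from 48 h to 96 h differed from that from 24 h to 48 h for 983 probes (2.14%), 499 more positive (1.08%) and 484 more negative (1.05%), and for 268 without the replicate block. With median scaling the count was 477, split into 134 more positive and 343 more negative. Hbegf stood at 10.26 ± 0.39 at 48 h and 10.13 ± 0.50 at 96 h and was not called between these times (-0.13, adjusted p = 0.87). Its change after 48 h was lower than that before 48 h (difference -1.95, adjusted p = 0.00022). Myl2 rose by less than before 48 h, by 1.13 between 48 h and 96 h (difference -1.82, adjusted p = 0.0013). Of the fallers, Htra3 stood at 9.42 ± 0.70 at 48 h and 10.05 ± 0.23 at 96 h, and its change was more positive by 2.81 than before 48 h, as were those of Aldh3a1 (2.76) and Ifitm1 (2.50). Ifitm1 and Aldh3a1 rose again by 0.94 and 0.74 between 48 h and 96 h, while Prl2c3 fell further by 0.77.

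Probes of the long course were chosen by the contrast of 144 h with 0 h, which holds neither the 24 h nor the 48 h means, although those arrays entered the estimates of spread and block. The choice is not free of the chips. In replicate 3 the 0 h and 24 h arrays share a chip, and the 48 h and 144 h arrays share another. A difference between these chips would enter both the choice and the step from 24 h to 48 h, and this was not tested. At 144 h against 0 h 8207 probes had changed (17.8%). For the 3814 that were higher (8.29%), the median change from 24 h to 48 h was 0.19 ± 0.04 (SD over 3 growths, log2), beside 0.17 ± 0.01 from 12 h to 24 h and 0.15 ± 0.01 from 48 h to 96 h. For the 4393 that were lower (9.55%) these were -0.16 ± 0.02, -0.13 ± 0.02 and -0.14 ± 0.02. In replicate 3 the step from 24 h to 48 h was 0.15, below its 0.17 from 12 h to 24 h, so the order of the steps among risers did not hold in every growth. The 3 steps are of unequal length and were not scaled to time.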

How the data were processed

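The authors' deposited raw table holds linear intensity values of 46019 probes on 36 arrays (lowest 91.5), and their normalized table, also deposited, spans 8.33 to 16.2 on a log2 scale. How they normalized it is not given in these sources. Every one of the 44505 rows of the series' value table equals 1 row of the normalized table on all 36 arrays to 6 decimals, which ties the numeric probe identifiers to GEO's platform annotation (28471 probes with 1 gene). Of the symbols 28420 were looked up in RefSeq and 0 changed. Raw intensities were background-corrected (normexp, offset 50), taken to log2 and quantile-normalized. They were fitted in limma 3.58.1 (R 4.3.3) with a mean per time, the replicate number as a fixed block and an intensity trend, over all 36 arrays and all probes, with Benjamini-Hochberg adjustment at 0.05. Tests are two-sided.

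The replicate block was used because the comparison is defined as paired by number. The labels do not tie a number to a passage, and the correlation of same-numbered 48 h and 24 h deviations was 0.38, 0.38 and 0.05, so the third pair gave no sign of pairing above 0.1. Files give no detection calls, and an array's median raw intensity stands in for background. Since arrays carry no read depth, their number limits the precision. Named genes are the 15 largest rises and 15 largest falls that passed, moved alike in 3 pairs and were above the median on all 3 arrays of the higher time, and list members given as examples. Gene lists take the brightest probe per gene. Members and lists were chosen with earlier results of these data known. On simulated data for 48 h against 24 h with 46019 probes, 40.3%, 94% and 100% of probes changed by 0.5, 1 and 2 log2 units were recovered, and 10 of 166 calls were false. The simulation had independent noise, replicate terms and no chip effect, and the dimmest probes were left unchanged. Its rates therefore do not cover differences between chips, which lie between the times in replicates 2 and 3. Alternatives covered the block, the chip, the table, background, normalization, filters, the trend, the arrays in the fit and replicates left out.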

Additional observations from a re-analysis of the deposited data

How the results depend on the processing

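Of the 1816 calls at 48 h against 24 h, none had the opposite sign in any of the alternatives. The count was 728 with no replicate block, 903 with median scaling, 489 with only the 2 times compared and no replicate block, and between 566 and 1638 when 1 replicate or array was left out. With the chip as a fixed block it was 1373 (1248 of them also in the 1816) and it was 1849 from the values the authors normalized. The 85 probes whose step differed from the one before became 2 with no replicate block, 23 with median scaling, 50 with no intensity trend, 376 and 0 with only the times compared, with and without the replicate block (2081 at an unadjusted p under 0.05 in limma), and between 0 and 36 without 1 replicate. The 983 whose step differed from the one after became 268 with no replicate block, 477 with median scaling, 3 with only the times compared and no replicate block, and between 271 and 378 without 1 replicate. The causes of these shifts were not tested, except that fewer arrays were fitted where some were left out. All values of the 30 genes chosen by size kept direction and call under the alternatives except 5, which lost the call, namely Ndrg4 and Sfrp2 without the replicate block in either fit and Ifitm1 with only the times compared and no replicate block (adjusted p between 0.0557 and 0.229). Of 48 further list members called, 11 kept their call in every alternative, 27 lost it without the replicate block, 15 lost it with the chip as a fixed block, and 0 changed sign (an alternative chosen after seeing the data). Probes near the background limit what can be read, since 51 probes called higher and 37 called lower were above the array's median on no array of the lower time.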

Other observations

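Some genes of the cell cycle list had changed before 24 h and did not pass the test at 48 h. Cdkn1c, the inhibitor p57, was higher at 24 h than at 0 h by 3.74 on the log2 scale, changed by -0.26 between 24 h and 48 h (adjusted p = 0.68) and fell by 1.53 between 48 h and 96 h. Ccnd3, cyclin D3, which stays on in differentiating muscle, was higher than at 0 h by 1.32 at 24 h and by 1.54 at 48 h. Cox7a1, the muscle form of a cytochrome c oxidase subunit, rose by 0.70 between 24 h and 48 h, and its change after 48 h was more positive by 1.34 (adjusted p = 0.0057). The largest fall of all probes at 48 h against 24 h, -2.72, was on a probe that is unnamed here.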
